A study of Mus musculus with 18 samples.

Results

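Macrophages are the immune cells that take up debris, dead cells and surplus lipid in fat, and 34 genes that mark them were followed in visceral fat (white adipose tissue, WAT) of mice. The list holds 24 general macrophage genes, 4 genes of resident macrophages (Cd163, Lyve1, Folr2 and Timd4) and 6 genes of lipid-associated macrophages (Trem2, Gpnmb, Cd9, Spp1, Itgax and Lgals3). The genes were taken by name and not by their measured values, though with earlier results of these data known. Of the 34 genes, 33 were measured among 19938 genes in all, each by 1 probe set, and Spp1 was not analysed here. Every value below is a log2 signal of a microarray, so that a difference of 1 is a 2-fold change. A gene is said to rise, fall or change at an adjusted p under 0.10 (limma, Benjamini-Hochberg over all 19938 genes).

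RNA of visceral fat from 18 male wildtype C57BL/6N mice, aged 5 to 6 months, was hybridised to microarrays of the Affymetrix Mouse Gene 1.0 ST design, 1 per mouse. The 5 STZ, BEZ and the 6 STZ, SD mice had been made diabetic with streptozotocin (STZ), a toxin of the insulin-producing beta cells, given intraperitoneally at 65 mg/kg a day for 5 days at an age of 10 to 16 weeks. The 7 Con, SD mice were injected with citrate buffer. From 2 weeks after STZ the STZ, BEZ mice ate chow with 0.25 or 0.5% bezafibrate (BEZ), a fibrate that activates all PPAR receptors, for 8 weeks, while the other groups ate the standard diet (SD). The labels do not give the BEZ content for each mouse. They call the arrays of a group biological replicates.

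In fat, resident macrophages sit along vessels and between adipocytes, depend on the growth factor CSF1 and its receptor, and clear dead cells and iron. When adipocytes die or fat expands, further macrophages gather around lipid droplets and switch on a programme with TREM2, GPNMB, CD9, osteopontin, CD11c and galectin-3, known as the lipid-associated state. TREM2 signals through the adaptor TYROBP, and PU.1, the product of Spi1, is the transcription factor that most macrophage genes need. In whole fat, fewer macrophages and less RNA of a gene per macrophage cannot be told apart.

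The promoters shown here belong to the 2 genes that differed between STZ, SD and Con, SD mice, Folr2 and Mpeg1, and to Itgam, the gene with the most matches to the core of a PU.1 site. The search used GAGGAA, on both strands, in the window from 250 bases before to 50 bases after each RefSeq start (GRCm38.p6). Only the 250 bases before the start are printed, 5′ to 3′ along the gene, and capitals mark the motif or its reverse complement. The intervals are chr7:101857191-101857440 (minus strand) and chr7:101845332-101845581 (minus strand) for the 2 starts of Folr2, chr19:12460520-12460769 (plus strand) for Mpeg1 and chr7:128062390-128062639 (plus strand) for Itgam.
Folr2, start 1: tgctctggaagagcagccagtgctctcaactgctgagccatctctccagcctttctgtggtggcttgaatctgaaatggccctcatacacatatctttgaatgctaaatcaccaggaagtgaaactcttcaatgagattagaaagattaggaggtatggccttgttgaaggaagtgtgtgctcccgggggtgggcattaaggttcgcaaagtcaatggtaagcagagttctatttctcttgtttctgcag
Folr2, start 2: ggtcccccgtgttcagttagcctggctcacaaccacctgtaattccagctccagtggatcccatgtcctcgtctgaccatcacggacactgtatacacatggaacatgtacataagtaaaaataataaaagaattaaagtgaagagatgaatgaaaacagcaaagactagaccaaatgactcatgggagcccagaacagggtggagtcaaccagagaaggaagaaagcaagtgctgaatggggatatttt
Mpeg1: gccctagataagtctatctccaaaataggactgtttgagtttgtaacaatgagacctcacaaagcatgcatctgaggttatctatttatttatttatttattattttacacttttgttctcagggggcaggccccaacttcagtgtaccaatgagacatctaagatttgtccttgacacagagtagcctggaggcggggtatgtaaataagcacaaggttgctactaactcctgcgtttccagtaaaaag
Itgam: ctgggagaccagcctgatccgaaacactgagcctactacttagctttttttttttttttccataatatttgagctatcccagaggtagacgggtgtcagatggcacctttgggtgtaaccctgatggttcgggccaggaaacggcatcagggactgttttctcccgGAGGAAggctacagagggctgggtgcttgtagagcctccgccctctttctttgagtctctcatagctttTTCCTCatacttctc

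The Folr2 and Mpeg1 windows hold no GAGGAA in either direction, and the Itgam window holds 3, of which 2 lie before the start. Promoters of 26 of the 34 genes were in the table, with 30 starts, and 14 of the 26 genes had a match (53.8%), against 31.3% of 27025 genes. By start, 15 of 30 windows matched, against 28.3% of 32851. The E-box CACGTG was in 0 of the 30 windows, against 7.15% of all windows. The genes with a match were Marco, Fcgr1, Cd53, Laptm5, C1qb, C1qc, Spp1, Clec7a, Itgam, Cd68, Aif1, Trem2, Ms4a7 and Cybb. A match in these letters is a description of the sequence and was not related to the differences below. Adgre1, C1qa, Cd14, Csf1r, Lyve1, Msr1, Spi1 and Tyrobp had no entry.

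The markers of the tissue and of its neighbours were read before the groups were compared. White adipocyte markers (8 of 10 measured) averaged 12.28 to 12.60 in STZ, BEZ, 10.32 to 12.66 in STZ, SD and 12.16 to 12.76 in Con, SD mice. Pancreas genes (12 of 13 measured) averaged 6.15 to 10.44 in STZ, BEZ and 6.09 to 6.37 in Con, SD mice, and they reached 12.63 in STZ, SD replicate 6, against 6.02 to 6.21 in the other STZ, SD mice. The same array had the highest B cell mean (8.64), the highest T and NK cell mean (7.71) and the lowest adipocyte mean of all 18. Epididymis genes (11 of 13 measured) averaged 5.19 to 5.82 in STZ, BEZ, 5.13 to 10.97 in STZ, SD and 6.01 to 11.07 in Con, SD mice, with the highest means in STZ, SD replicate 3 and in Con, SD replicates 3 and 5. Values of several macrophage genes that rest on STZ, SD replicate 6 are therefore also given without it. Counts of called genes are also given without the 3 arrays of most pancreas or most epididymis signal where those differ. These fits are not free of other tissue, because STZ, BEZ replicates 3 and 4, with pancreas means of 8.80 and 8.47, stay in them. Liver genes (5 of 6 measured) averaged 7.41 to 11.01 in STZ, BEZ, 6.53 to 7.65 in STZ, SD and 7.43 to 10.10 in Con, SD mice. The part of liver signal was not tested.

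**Figure D1:**
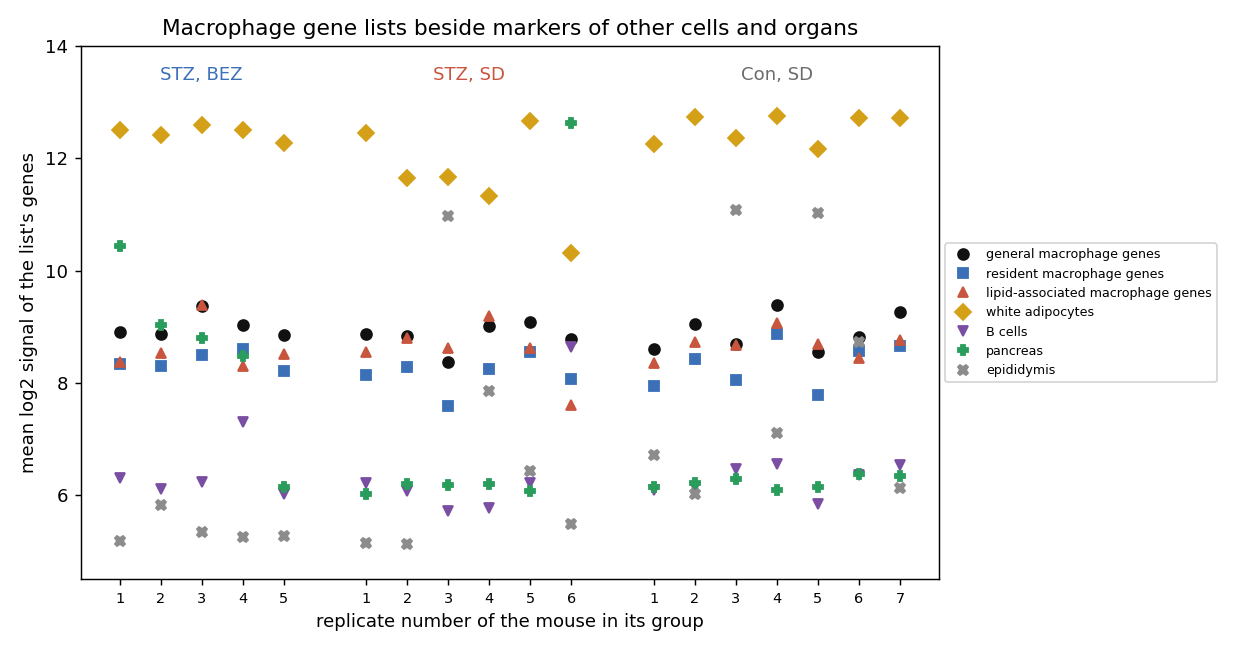
Mean log2 signal (vertical axis) of the 3 macrophage lists and of markers of white adipocytes, B cells, pancreas and epididymis in each mouse (horizontal axis, by group and replicate number). The general macrophage genes stayed between 8.38 and 9.38 in all 18 mice, while pancreas genes reached 12.63 in STZ, SD replicate 6.

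The macrophage genes were compared first between diabetic and nondiabetic fat. In STZ, SD compared with Con, SD mice, 1 of 33 genes rose (Mpeg1) and 1 fell (Folr2), where 10.3% of all genes changed (5.82% rose and 4.52% fell). No test set this count against that share. Without STZ, SD replicate 6 the count was 6 of 33, where 14.5% of all genes changed. The median difference of the 33 genes was -0.08, with 11 above and 22 below 0, and that of all genes was -0.03, with 43.7% of them above 0. Among the 24 general genes the median difference was -0.10, it was -0.00 among the 4 resident genes, and it was -0.07 among the 5 lipid-associated genes. Averaged over an array, the general genes reached 8.38 to 9.09 in STZ, SD mice, against 8.56 to 9.38 in Con, SD mice, and the groups overlapped over most of that range. In 0 of 33 genes were the 2 groups without overlap, against 1.62% of all genes.

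Folr2 encodes a folate receptor found on resident, perivascular macrophages. Its signal was 7.99 at the lowest, 8.37 at the median and 9.45 at the highest in STZ, SD mice, against 8.90, 9.67 and 10.08 in Con, SD mice. Only STZ, SD replicate 5 reached into the range of the Con, SD mice, and the other 5 STZ, SD mice, at 8.64 or less, were below all 7 of them. Folr2 fell by 0.97 (SE 0.24, adjusted p = 0.0277, limma), a 1.95-fold lower signal in STZ, SD, with 6 of 6 arrays below the Con, SD mean. Without STZ, SD replicate 6 the fall was 0.86 (adjusted p = 0.0400), and over all 18 fits that left out 1 array each the adjusted p was 0.00656 to 0.0716.

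The other resident genes did not pass the test, and their intervals spanned 0. Cd163, the scavenger receptor for haemoglobin, averaged 7.33 ± 0.71 in STZ, SD and 7.35 ± 0.47 in Con, SD mice (SD, n = 6 and 7). Timd4, a receptor for phosphatidylserine on dying cells, averaged 6.73 ± 0.51 in STZ, SD and 6.71 ± 0.28 in Con, SD mice. In STZ, SD replicate 6 Cd163 was 6.30 and Timd4 7.65, against 6.58 to 7.94 and 6.15 to 6.82 in the other STZ, SD mice. The signs of both differences rest on that array. Lyve1, a hyaluronan receptor, averaged 10.02 ± 0.46 in STZ, SD and 9.76 ± 0.48 in Con, SD mice, a difference of 0.26 (95% interval -0.20 to 0.72). Lymphatic endothelium also makes LYVE1, and the 5 measured markers of that endothelium averaged 7.71 to 8.92 in STZ, SD and 6.95 to 8.22 in Con, SD mice. Their part in the Lyve1 signal was not tested.

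Mpeg1 encodes perforin-2, a pore-forming protein of macrophages and other phagocytes. It had 8.06 at the lowest, 8.71 at the median and 9.21 at the highest in STZ, SD mice, against 7.58, 7.99 and 8.55 in Con, SD mice. The groups overlapped between 8.06 and 8.55, where 3 of the 6 STZ, SD mice and 3 of the 7 Con, SD mice lay. Mpeg1 rose by 0.70 (SE 0.20, adjusted p = 0.0536, limma) in STZ, SD, 1.62-fold, with 6 of 6 arrays above the Con, SD mean. The call was lost in 3 of the 18 fits that left out 1 array, with an adjusted p of 0.116 without STZ, SD replicate 2, 0.129 without STZ, SD replicate 4 and 0.110 without Con, SD replicate 6. B cells also carry Mpeg1, and STZ, SD replicate 6, with the highest B cell mean, had 9.11, while STZ, SD replicate 4, with a B cell mean of 5.77, had the highest Mpeg1 value. The part of B cells in the Mpeg1 signal was not tested. Without replicate 6 the difference was 0.62 (adjusted p = 0.0791).

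**Figure D2:**
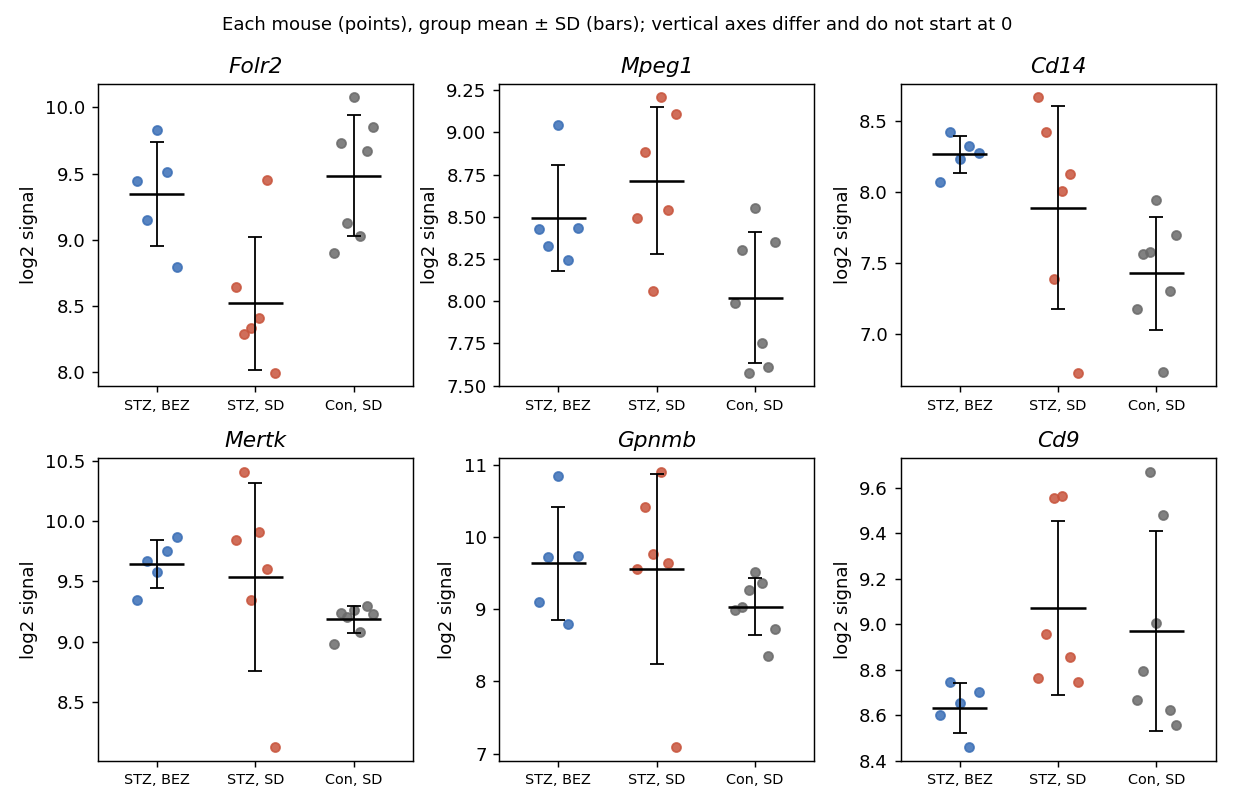
Log2 signal (vertical axes, not from 0) of Folr2, Mpeg1, Cd14, Mertk, Gpnmb and Cd9 in each STZ, BEZ, STZ, SD and Con, SD mouse (points), with the group mean and SD as bars. For Folr2, 5 of 6 STZ, SD mice lay below all Con, SD mice, and 1 STZ, SD mouse, replicate 6, lay far below the others for Gpnmb and Mertk.

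The general genes without a call included the defining macrophage markers. Adgre1, an adhesion receptor whose product is the classical surface marker of mouse macrophages, averaged 8.94 ± 0.45 in STZ, SD and 9.36 ± 0.49 in Con, SD mice, a difference of -0.42 (95% interval -0.90 to 0.06). Cd68, a lysosomal membrane glycoprotein, differed by -0.46 (95% interval -0.97 to 0.05), and Csf1r, the receptor for CSF1, by -0.11. Csf1 itself averaged 8.60 ± 0.32 in STZ, SD and 8.66 ± 0.33 in Con, SD mice. The genes for the C1q chains, the recognition part of the first complement component and abundant products of tissue macrophages, differed by -0.24 (C1qa), -0.23 (C1qb) and -0.18 (C1qc), with 0.406 as the smallest adjusted p of the 3 (limma). Lyz2, which encodes lysozyme, averaged 11.95 ± 0.33 in STZ, SD and 12.02 ± 0.27 in Con, SD mice. Fcer1g, an adaptor of Fc receptors, differed by -0.41. The other 9 general genes that are not described further on, Fcgr1, Msr1, Tyrobp, Laptm5, Cd53, Ms4a7, Clec7a, Cybb and Spi1, differed by between -0.15 (Spi1) and 0.11 (Ms4a7). Fcgr1 and Clec7a encode receptors for antibodies and for fungal glucan, Msr1 a scavenger receptor, and Cybb the catalytic chain of the phagocyte oxidase.

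Itgam, which encodes CD11b, the integrin chain of myeloid cells, came closest to a call among the general genes that were lower. Its signal was 6.47 at the lowest, 7.39 at the median and 8.37 at the highest in STZ, SD mice, against 7.56, 7.91 and 8.67 in Con, SD mice. Of the STZ, SD mice, 3 were below every Con, SD mouse, and STZ, SD replicate 5 was above 5 of the 7. The difference was -0.70 (SE 0.26, adjusted p = 0.127, limma), and without STZ, SD replicate 6, the lowest array, it was -0.52 (adjusted p = 0.203). Without STZ, SD replicate 5 it passed at an adjusted p of 0.0302. SAM also called Itgam lower, where it called 12.3% of all genes.

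The array of STZ, SD replicate 6 decided several of the other values. Cd14, the co-receptor for endotoxin, had 6.73 in that mouse and 7.39 to 8.67 in the other STZ, SD mice, against 6.73 to 7.95 in Con, SD mice. Mertk, a receptor kinase for the uptake of dead cells, had 8.12 in that mouse and 9.34 to 10.41 in the other 5, all of these above the Con, SD mice at 8.98 to 9.29. Gpnmb, a membrane glycoprotein of lipid-laden macrophages, had 7.09 in that mouse and 9.56 to 10.91 in the other 5, against 8.35 to 9.51 in Con, SD mice. With all arrays the differences were 0.46, 0.35 and 0.52 for Cd14, Mertk and Gpnmb, and none passed the test. Without STZ, SD replicate 6 they were 0.69 (adjusted p = 0.0464), 0.64 (adjusted p = 0.0138) and 1.02 (adjusted p = 0.0573), all past the threshold.

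Marco and Aif1 were high where those genes were low. Marco, a scavenger receptor known from macrophages of spleen and lymph node, had 8.28 in STZ, SD replicate 6, against 5.48 to 5.90 in the other STZ, SD and 5.61 to 6.22 in Con, SD mice. Aif1, which encodes the actin-binding protein IBA1, had 7.09 in that mouse, and without it Aif1 differed by -0.46 (adjusted p = 0.0592). In all, 4 of 33 genes were higher (Cd14, Gpnmb, Mertk and Mpeg1) and 2 lower (Aif1 and Folr2) in STZ, SD without replicate 6, where 14.5% of all genes changed. With replicate 6 and STZ, BEZ replicates 1 and 2, the arrays of most pancreas signal, left out together, 3 were higher and 2 lower, where 11.6% of all genes changed, and Mpeg1 was no longer among them. Whether pancreas, lymphoid or other tissue in that sample set these values was not tested.

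**Figure D3:**
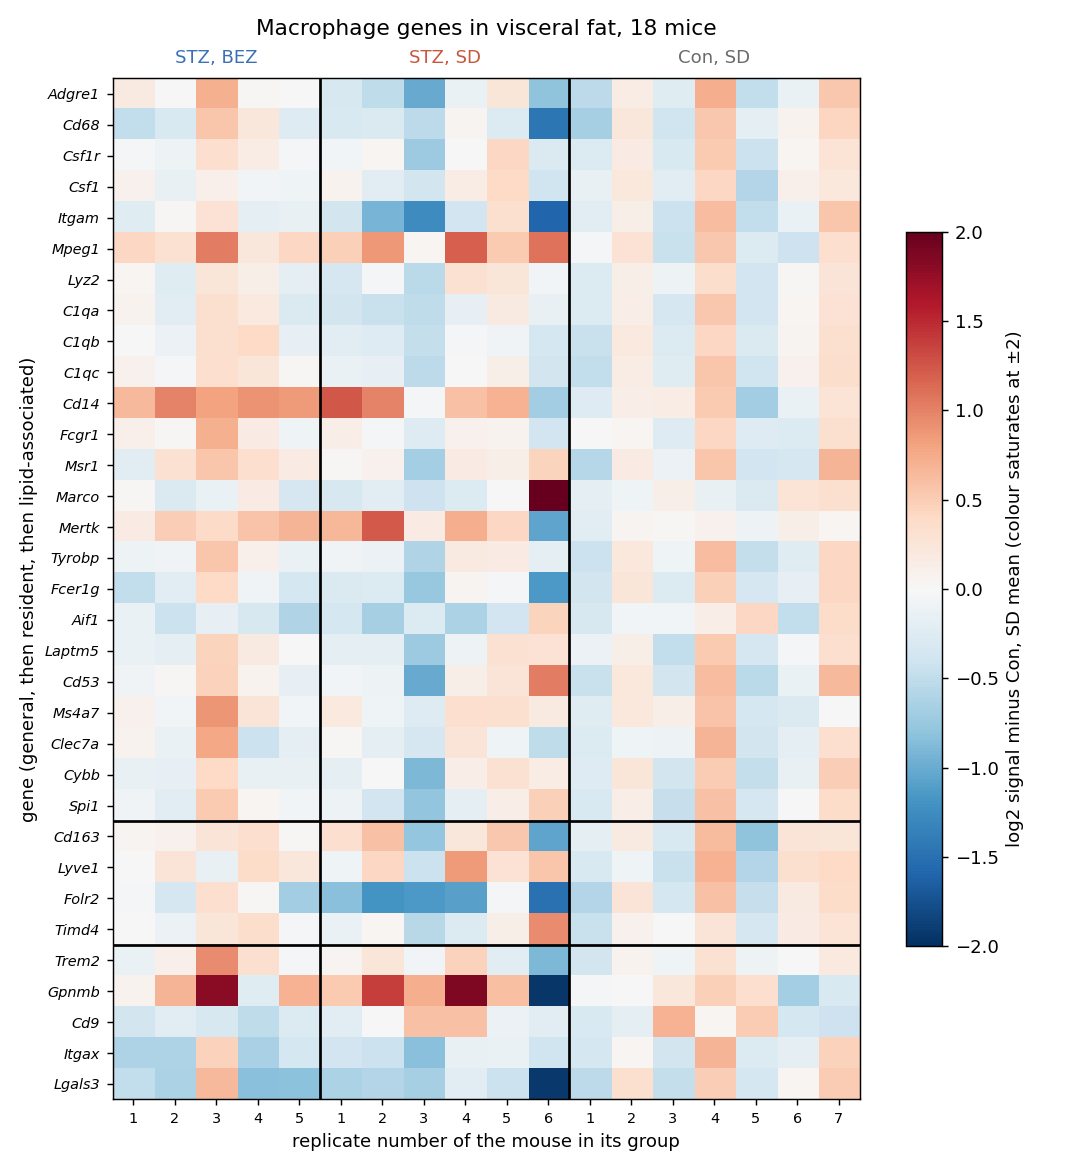
Log2 signal of the 33 measured macrophage genes minus the mean of the Con, SD mice (colour), for each gene (rows: general, resident and lipid-associated genes) and mouse (columns: STZ, BEZ, STZ, SD and Con, SD, by replicate number). Folr2 is clearly blue in the STZ, SD mice other than replicate 5, and STZ, SD replicate 6 departs from its group in Marco, Gpnmb, Mertk and Lgals3.

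None of the 5 measured lipid-associated genes passed the test in STZ, SD compared with Con, SD mice with all arrays in the fit. Lgals3 was called lower by SAM, where 12.3% of all genes were called, and by limma without STZ, BEZ replicate 3 (9.31% of all genes). Cd9 and Gpnmb were called higher with the pancreas and epididymis means as covariates, where 17% of all genes were called. Trem2, the lipid receptor after which the state is often named, averaged 8.02 ± 0.47 in STZ, SD and 8.09 ± 0.22 in Con, SD mice, a difference of -0.07 (95% interval -0.48 to 0.35). It was 7.19 in STZ, SD replicate 6, against 7.87 to 8.55 in the other STZ, SD mice, and the sign of its difference rests on that array. Without replicate 6 the median difference of the 5 genes was 0.10, where it was -0.07 with all arrays. Lgals3, which encodes galectin-3, averaged 9.58 ± 0.60 in STZ, SD and 10.32 ± 0.45 in Con, SD mice, and its difference of -0.74 had an adjusted p of 0.141, or -0.51 with 0.224 without STZ, SD replicate 6. Itgax, which encodes CD11c, averaged 6.58 ± 0.25 in STZ, SD and 6.97 ± 0.41 in Con, SD mice, and all 6 STZ, SD arrays were below the Con, SD mean (difference -0.39, adjusted p = 0.306). Gpnmb had the widest interval, -0.455 to 1.504.

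Cd9 encodes a tetraspanin made by many cell types. Its highest values were 9.55 and 9.56 in STZ, SD replicates 3 and 4, and 9.670, 9.478 and 9.004 in Con, SD replicates 3, 5 and 4. The epididymis genes averaged 10.97 and 7.85 in those 2 STZ, SD mice, and 11.07, 11.03 and 7.11 in those 3 Con, SD mice. In the other 13 mice Cd9 was at most 8.96, among them Con, SD replicate 6, with 8.62 beside an epididymis mean of 8.74. The part of epididymis in the Cd9 signal was not tested. Cd9 differed by 0.10 between STZ, SD and Con, SD mice, and by 0.25 (adjusted p = 0.340) without the 3 arrays of most epididymis signal.

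The BEZ comparison gave no call among the 33 genes, where 0.707% of all genes changed in STZ, BEZ compared with STZ, SD mice. At an unadjusted p under 0.05, 3 of the 33 were higher (Folr2, Adgre1 and Itgam) and 1 was lower (Cd9) in STZ, BEZ, against 10.2% of all genes in either direction, and SAM called 0 of the 33 and 2.31% of all genes. The median difference was 0.17, with 28 genes above and 5 below 0, while the median over all genes was 0.01 and 52.1% of them were above 0. The general genes had a median difference of 0.17, the resident genes 0.12 and the lipid-associated genes 0.08. Without STZ, SD replicate 3, which had the lowest value of its group in 18 of the 33 genes, the median was 0.06, and it was also 0.06 without STZ, BEZ replicate 3, which had the highest value of its group in 24.

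Folr2 had the largest difference. It was 9.44, 9.15, 9.83, 9.52 and 8.79 in the 5 STZ, BEZ mice, against 7.99, 8.37 and 9.45 (lowest, median and highest) in STZ, SD mice. Every STZ, BEZ mouse was above 5 of the 6 STZ, SD mice, and STZ, SD replicate 5 was above 3 of the 5. The difference was 0.83 (SE 0.26, 95% interval 0.28 to 1.37, adjusted p = 0.240, limma), and without STZ, SD replicate 5 it was 1.01 and passed the threshold (adjusted p = 0.0532). Between STZ, BEZ and Con, SD mice Folr2 differed by -0.14 (95% interval -0.67 to 0.39). Both comparisons of STZ, SD use the same 6 arrays.

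Adgre1 was 9.54, 9.36, 10.07, 9.38 and 9.35 in the STZ, BEZ mice, against 8.36, 8.95 and 9.61 in STZ, SD mice. All 5 STZ, BEZ arrays were above the STZ, SD mean, and the groups overlapped only through STZ, SD replicate 5 (difference 0.60, 95% interval 0.08 to 1.12, adjusted p = 0.407). Itgam was 7.81, 8.07, 8.33, 7.87 and 7.91 in the STZ, BEZ mice, against 6.47, 7.39 and 8.37 in STZ, SD mice. Its difference was 0.65 (95% interval 0.05 to 1.25, adjusted p = 0.444), and it was 0.47 without STZ, SD replicate 6. Neither passed the test.

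Cd9 was the only gene whose groups did not overlap, against 1.49% of all genes. It was 8.600, 8.745, 8.656, 8.460 and 8.700 in the STZ, BEZ mice, and its lowest value in STZ, SD mice was 8.746. The gap between the groups was therefore smaller than the spread within either. The difference was -0.44 (95% interval -0.88 to -0.00, adjusted p = 0.482), beside epididymis means of 5.19 to 5.82 in STZ, BEZ and 5.13 to 10.97 in STZ, SD mice.

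The C1q genes, Cd68 and the other resident genes gave values without a call. C1qa, C1qb and C1qc differed by 0.26, 0.32 and 0.31 in STZ, BEZ compared with STZ, SD mice, with adjusted p = 0.670, 0.506 and 0.579 (limma). Cd68 averaged 9.902 ± 0.433 in STZ, BEZ and 9.498 ± 0.514 in STZ, SD mice (SD, n = 5 and 6), and its difference of 0.40 was 0.21 without STZ, SD replicate 6. Cd163 differed by 0.18, Timd4 by 0.07 and Lyve1 by -0.12, and all 3 intervals included 0. Marco differed by -0.30, or by 0.14 without STZ, SD replicate 6, and Gpnmb by 0.08, or by -0.42 without that array, so that this array set the sign of both. It also set the sign for Mertk (0.10, or -0.18 without it), Csf1 (0.04, or -0.03), Aif1 (-0.02, or 0.13) and Cd163.

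Trem2, Tyrobp and Fcer1g did not pass the test in STZ, BEZ compared with STZ, SD mice. Trem2 was 7.96, 8.19, 9.03, 8.41 and 8.05 in the STZ, BEZ mice, against 7.19, 8.10 and 8.55 in STZ, SD mice, a difference of 0.31 (95% interval -0.15 to 0.76). Without STZ, SD replicate 6, which had the Trem2 value of 7.19, the highest difference among the lipid-associated genes was 0.14. Tyrobp, the gene of the TREM2 adaptor, averaged 10.26 ± 0.29 in STZ, BEZ and 10.08 ± 0.28 in STZ, SD mice. Fcer1g, a related adaptor of Fc receptors, averaged 10.51 ± 0.34 in STZ, BEZ and 10.25 ± 0.46 in STZ, SD mice. For none of the 3 does the interval shut out a change of 1.5-fold or more.

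**Figure D4:**
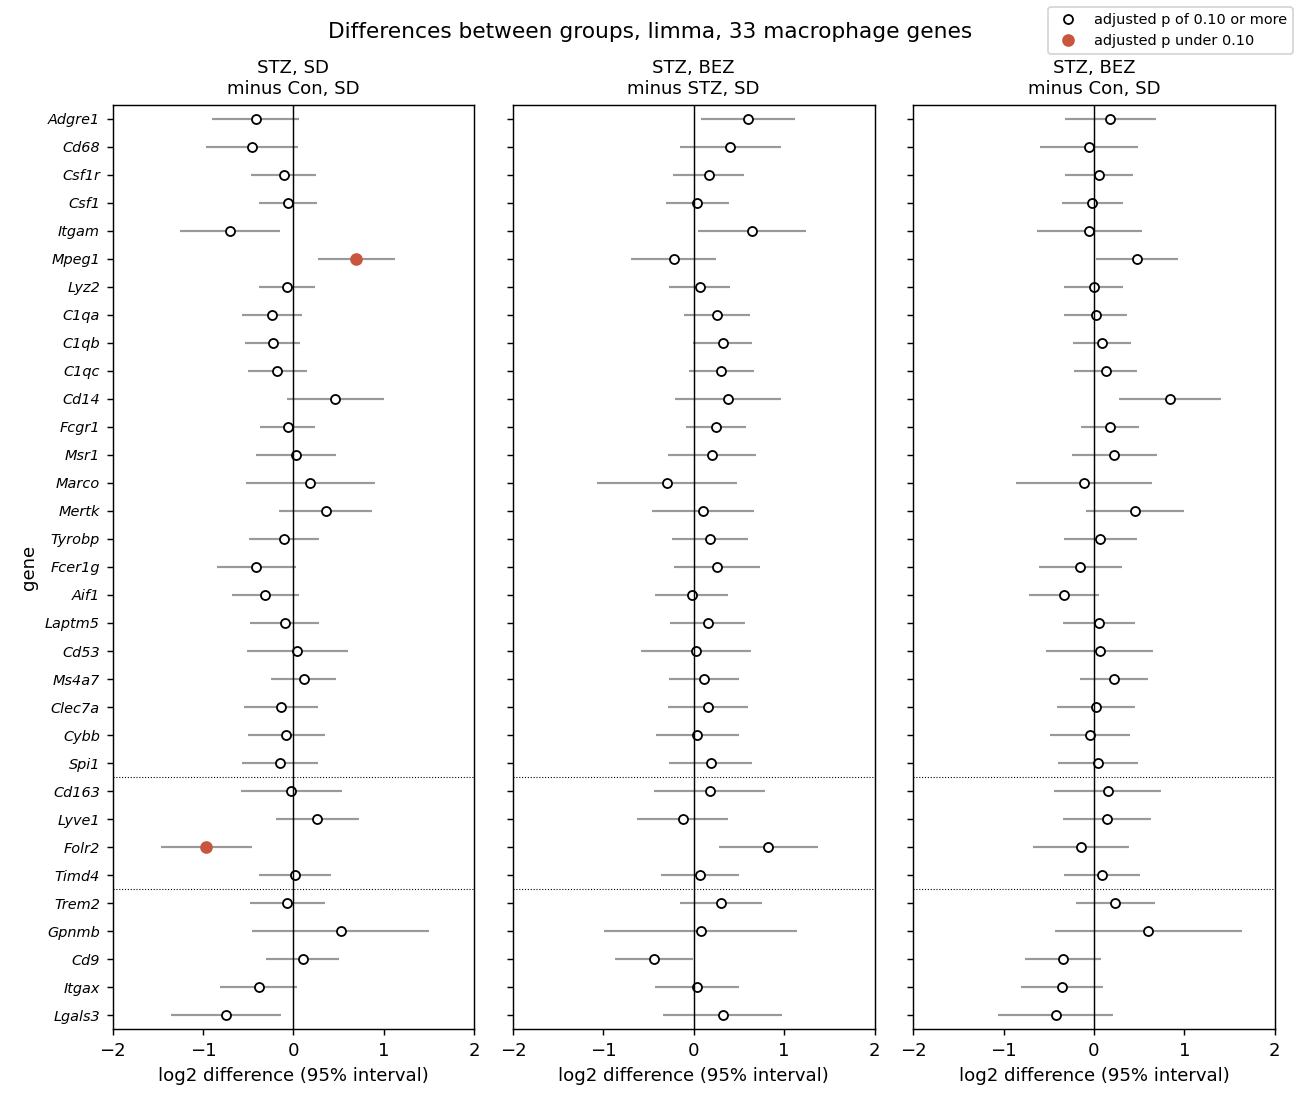
Log2 differences (horizontal axes) with 95% intervals for the 33 measured macrophage genes (rows) in STZ, SD minus Con, SD, STZ, BEZ minus STZ, SD and STZ, BEZ minus Con, SD, with filled points at an adjusted p under 0.10. Only Mpeg1 (0.70) and Folr2 (-0.97) are filled, both in STZ, SD minus Con, SD.

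Diabetic mice on BEZ were also set against nondiabetic mice. No gene of the 33 was called in STZ, BEZ compared with Con, SD mice, where 5.95% of all genes changed, 2 were at an unadjusted p under 0.05 (Cd14 and Mpeg1, both higher), against 18.3% of all genes, and SAM called 4 higher, where it called 25.1% of all genes. The median difference was 0.06, against -0.01 over all genes. Cd14 was 8.07, 8.43, 8.24, 8.32 and 8.28 in STZ, BEZ mice, all above the 6.73, 7.56 and 7.95 of the Con, SD mice (difference 0.84, SE 0.27, adjusted p = 0.101). Mertk was 9.34, 9.67, 9.57, 9.75 and 9.87 in STZ, BEZ mice, all above the 8.98, 9.23 and 9.29 of the Con, SD mice (difference 0.46, SE 0.26, adjusted p = 0.365). These 2 were the genes without overlap, against 6.8% of all genes. In the fit without STZ, SD replicate 6, which enters here through the shared estimate of the spread, Cd14 and Mertk passed at adjusted p = 0.0242 and 0.0624, where 10.5% of all genes changed.

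Mpeg1 averaged 8.49 ± 0.32 in STZ, BEZ mice, against 8.71 ± 0.43 in STZ, SD and 8.02 ± 0.39 in Con, SD mice. Its difference was -0.22 (adjusted p = 0.807) in STZ, BEZ compared with STZ, SD and 0.47 (adjusted p = 0.246) in STZ, BEZ compared with Con, SD. Gpnmb was 9.10, 9.72, 10.84, 8.80 and 9.74 in STZ, BEZ mice and overlapped both other groups. Lgals3 was 9.840, 9.689, 10.979, 9.488 and 9.504 in STZ, BEZ mice, of which only replicate 3 was above the Con, SD median of 10.36.

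Many of the genes had their highest or lowest values in the same mice. The general genes averaged 9.36 in STZ, BEZ replicate 3, against 8.86 to 9.04 in the other STZ, BEZ mice, 9.38 in Con, SD replicate 4 and 8.38 in STZ, SD replicate 3. Con, SD replicate 4 had the highest value of its group in 25 of 33 genes, and Con, SD replicate 5 the lowest in 14. The range within a group had a median over the 33 genes of 0.62 in STZ, BEZ, 1.203 in STZ, SD (0.82 without replicate 6) and 1.04 in Con, SD mice, against 0.33, 0.65 and 0.53 over all genes. STZ, SD replicate 3 and Con, SD replicate 5 were also 2 of the 3 mice with epididymis means near 11, and the part of that tissue in their low macrophage values was not tested. Without the 3 arrays of most epididymis signal, Folr2 (-1.09, adjusted p = 0.0307) and Mpeg1 (0.69, adjusted p = 0.0510) were again the 2 genes called in STZ, SD compared with Con, SD, where 12% of all genes changed.

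Each gene was therefore also read against the mean of the other general genes on the same array, as a description with no test. On this scale Mpeg1 was -0.58 to 0.34 in STZ, SD mice, against -1.25 to -0.64 in Con, SD mice, and the groups did not overlap. Itgax was -2.30 to -2.19 in STZ, SD mice, against -2.09 to -1.74 in Con, SD mice, again without overlap. These were the 2 of 33 genes without overlap on this scale, against 0.928% of all genes. That share is not a like background, because the subtraction removes variation the macrophage genes have in common and adds it to unrelated genes. Folr2 was -0.79 to 0.36 in STZ, SD and 0.29 to 0.86 in Con, SD mice, with 1 STZ, SD mouse in the range of the Con, SD mice. Lgals3 was -0.39 to 1.28 in STZ, SD and 1.16 to 1.60 in Con, SD mice, with 1 STZ, SD mouse, replicate 3, above the lowest Con, SD mouse.

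**Figure D5:**
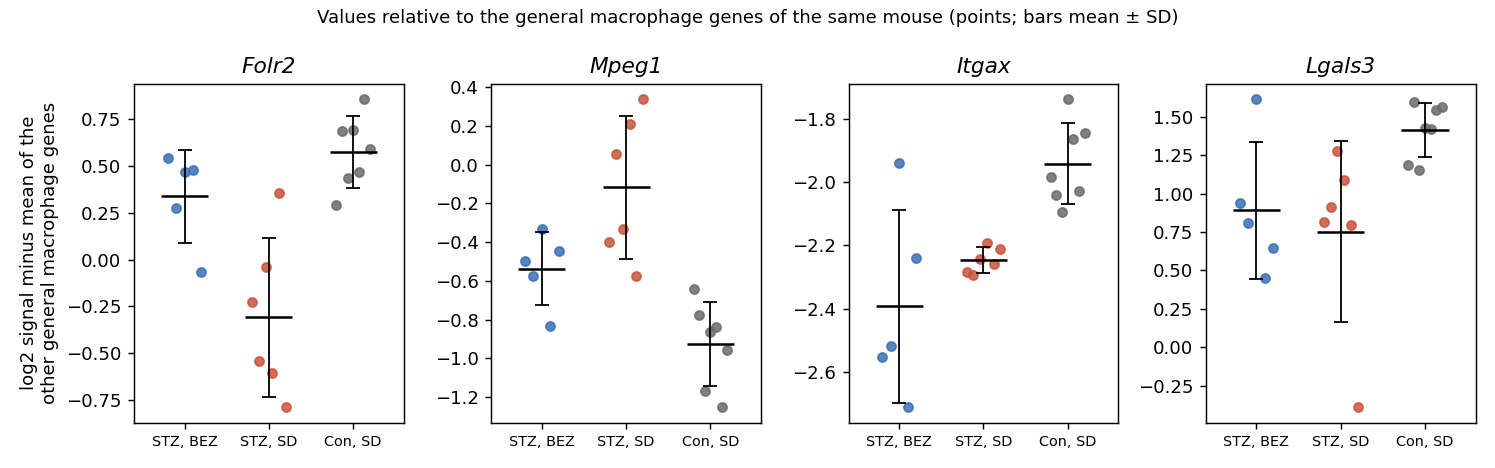
Log2 signal of Folr2, Mpeg1, Itgax and Lgals3 minus the mean of the other general macrophage genes of the same mouse (vertical axes), for STZ, BEZ, STZ, SD and Con, SD mice (points; bars are mean and SD). The STZ, SD mice lie apart from the Con, SD mice for Mpeg1 and Itgax, while 1 STZ, SD mouse overlaps them for Folr2 and for Lgals3.

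In STZ, BEZ mice the relative values were -0.83 to -0.33 for Mpeg1, -2.71 to -1.94 for Itgax, -0.07 to 0.54 for Folr2 and 0.45 to 1.62 for Lgals3. For Mpeg1, only replicate 4 was clearly below the lowest STZ, SD mouse, and replicate 2 was level with it. For Itgax, only replicate 3 was in the range of the Con, SD mice. None of these differences was tested.

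Lists around the macrophage genes placed these values among partner genes, and these lists too were chosen with earlier results of these data known. Alternative activation is the state linked to type 2 immunity. Of its 12 listed genes, 4 fell in STZ, SD compared with Con, SD mice and 0 rose, beside the 4.52% of all genes that fell. Without the 3 arrays of most pancreas signal 3 fell, where 11.6% of all genes changed. Retnla, a secreted product of such macrophages and also of adipose tissue, averaged 10.52 ± 0.79 in STZ, SD and 11.99 ± 0.40 in Con, SD mice and fell by 1.46 (adjusted p = 0.0122). Cbr2, a carbonyl reductase that marks resident macrophages in mice, fell by 1.16 (adjusted p = 0.0261), and the chemokine gene Ccl24 fell by 0.85 (adjusted p = 0.0455, and 0.112 without STZ, SD replicate 2). The list had 0 of 12 genes called in STZ, BEZ compared with STZ, SD, with differences of 0.85 for Retnla and 0.89 for Cbr2 (adjusted p = 0.338 and 0.294). Compared with Con, SD mice 0 of 12 were called in STZ, BEZ, with differences of -0.62 for Retnla (adjusted p = 0.295) and 0.36 for the scavenger receptor gene Stab1 (adjusted p = 0.388).

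Of 9 measured genes of monocyte recruitment, 3 fell in STZ, SD compared with Con, SD mice and none rose, beside 4.52% of all genes that fell and 5.82% that rose. Ccl7 fell by 1.22 (adjusted p = 0.0197) and Ccl2 by 1.19 (adjusted p = 0.0263), both of which attract monocytes, and Vcan, a matrix proteoglycan also made by monocytes, fell by 0.96 (adjusted p = 0.0361). None of the 9 was called in STZ, BEZ compared with STZ, SD mice, with the smallest p for Cx3cr1 (-0.26, adjusted p = 0.497), a chemokine receptor gene, and Plac8 (-1.28, adjusted p = 0.562). The list also had 0 calls in STZ, BEZ compared with Con, SD mice, with differences of -0.91 for Ccl2 (adjusted p = 0.120) and -0.81 for Ccl7 (adjusted p = 0.147).

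Csf2ra, a receptor chain for GM-CSF, fell by 0.46 in STZ, SD (adjusted p = 0.0312) and was the only one of 13 measured CSF1 axis and myeloid regulator genes to be called in that comparison. In the same comparison 10.3% of all genes changed. The list had 1 gene higher and 1 lower without STZ, SD replicate 6, where 14.5% of all genes changed. Of the 13, 0 were called in STZ, BEZ compared with STZ, SD mice, with differences of 0.80 for Nr1h3 (adjusted p = 0.305), which encodes the sterol receptor LXR alpha, and 0.83 for Cebpa (adjusted p = 0.416), a transcription factor gene of myeloid cells and adipocytes. In STZ, BEZ compared with Con, SD mice 0 were called, with differences of 0.74 for Mitf (adjusted p = 0.128) and -0.33 for Csf2ra (adjusted p = 0.151). There 1 gene rose in the fit without STZ, SD replicate 6, where 10.5% of all genes changed.

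In STZ, SD compared with Con, SD mice 0 of 10 TREM2-TYROBP signalling genes and 0 of 12 inflammatory activation genes were called by limma. At an unadjusted p under 0.05 there was 1 gene in each list, against 20.3% of all genes: Card9 (-0.34, adjusted p = 0.231), a signalling adaptor of fungal receptors, and the cytokine gene Tnf (-0.31, adjusted p = 0.226). Next by p were Pik3ap1 (0.39, adjusted p = 0.357), a signalling adaptor, and Cd80 (-0.31, adjusted p = 0.383), a costimulatory ligand. The fit without STZ, SD replicate 6 had 1 inflammatory activation gene lower, where 14.5% of all genes changed. Both lists also had 0 calls in the comparisons of STZ, BEZ mice. Against STZ, SD mice the signalling genes of smallest p were Plcg2 (-0.27, adjusted p = 0.636) and the kinase gene Syk (-0.33, adjusted p = 0.759), and the inflammatory genes were Il1b (-0.17, adjusted p = 0.657) and Ccl4 (0.07, adjusted p = 0.798). Against Con, SD mice they were Plcg2 (-0.44, adjusted p = 0.141) and Card9 (-0.45, adjusted p = 0.161), and Cxcl2 (-0.15, adjusted p = 0.384) and Ptgs2 (-1.60, adjusted p = 0.413). In this last comparison 1 signalling gene fell in the fit without STZ, SD replicate 6, where 10.5% of all genes changed.

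Lipid handling and lysosome genes had calls in all 3 comparisons. Of 18, 5 fell and 0 rose in STZ, SD compared with Con, SD mice, beside 4.52% of all genes that fell. Without STZ, SD replicate 6, 4 were lower and 1 higher, where 14.5% of all genes changed. Without the 3 arrays of most pancreas signal 2 were lower and 0 higher, where 11.6% of all genes changed. Without the 3 of most epididymis signal 4 were lower and 0 higher, where 12.0% of all genes changed. Among the 5 were Ctsd (fell by 0.59, adjusted p = 0.0175), a lysosomal protease, Fabp5 (fell by 1.07, adjusted p = 0.0503), a fatty acid carrier, and Npc2 (fell by 0.76, adjusted p = 0.0556, and 0.123 without STZ, SD replicate 4), a cholesterol carrier of the lysosome. In STZ, BEZ compared with STZ, SD mice 2 of the 18 rose, beside 0.682% of all genes. Abcg1, which exports sterols, averaged 9.18 ± 0.15 in STZ, BEZ and 8.24 ± 0.24 in STZ, SD mice and rose by 0.95 (adjusted p = 0.00379). Fabp5 averaged 10.83 ± 0.45 in STZ, BEZ and 9.35 ± 0.52 in STZ, SD mice and rose by 1.48 (adjusted p = 0.0765), with 5 of 5 arrays above the STZ, SD mean. Adipocytes also make these products, and the share of macrophages in them was not tested. The Fabp5 calls depend on single arrays, with an adjusted p of up to 0.239 in STZ, BEZ compared with STZ, SD and up to 0.110 in STZ, SD compared with Con, SD when 1 array was left out. Abcg1 was the 1 gene of the list that rose in STZ, BEZ compared with STZ, SD without STZ, SD replicate 6, and likewise without the 3 arrays of most pancreas or of most epididymis signal. Compared with Con, SD mice, Abcg1 rose by 0.62 (adjusted p = 0.0105) and Npc2 fell by 0.81 (adjusted p = 0.0712) in STZ, BEZ mice. Of all genes, 5.95% changed in that comparison. The list had 3 higher and 1 lower there without STZ, SD replicate 6, where 10.5% of all genes changed. It had 1 higher and 0 lower without the 3 arrays of most pancreas signal, where 2.87% of all genes changed.

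Dead cell clearance and cell division were read as well. Of 11 genes for the engulfment of dead cells, only Itgb5, an integrin chain, was called in STZ, SD compared with Con, SD mice, where it fell by 1.01 (adjusted p = 0.0136, limma). Of all genes, 10.3% changed in that comparison. The list had 1 gene lower and 1 higher without STZ, SD replicate 6 or without the 3 arrays of most pancreas signal, where 14.5% and 11.6% of all genes changed. It had 2 lower without the 3 of most epididymis signal, where 12.0% of all genes changed. In STZ, BEZ mice 0 of the 11 were called. Itgb5 differed by 0.43 (adjusted p = 0.560) and Elmo1 by -0.18 (adjusted p = 0.632) from STZ, SD mice. Compared with Con, SD mice the differences were -0.59 for Itgb5 (adjusted p = 0.158) and -0.75 for Mfge8 (adjusted p = 0.254), a bridging protein between phagocytes and dying cells, and Itgb5 passed at adjusted p = 0.0694 without STZ, SD replicate 6.

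Of 9 measured cell division genes, 7 fell in STZ, SD compared with Con, SD mice, beside 4.52% of all genes. The count was 9 without STZ, SD replicate 6, where 14.5% of all genes changed. It was 5 without the 3 arrays of most epididymis signal, where 12.0% of all genes changed. Prc1, a protein of the spindle midzone, fell by 0.88 (adjusted p = 0.0104), the spindle gene Tpx2 by 0.60 (adjusted p = 0.0145) and the cyclin gene Ccna2 by 0.97 (adjusted p = 0.0203). Of the 9, 4 fell in STZ, BEZ compared with Con, SD mice, beside 1.38% of all genes, among them Tpx2 (fell by 0.53, adjusted p = 0.0358), Prc1 (fell by 0.66, adjusted p = 0.0477) and Ccna2 (fell by 0.79, adjusted p = 0.0793). Without the 3 arrays of most pancreas signal 0 of the 9 were called in this comparison, with a smallest adjusted p of 0.157, where 2.87% of all genes changed. None was called in STZ, BEZ compared with STZ, SD mice, with differences of 0.36 for Mki67 (adjusted p = 0.759) and 0.21 for Prc1 (adjusted p = 0.765). These genes act in all dividing cells, and the share of macrophages in their signal was not tested.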

How the data were processed

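The authors deposited log2 signals of 35556 probe sets, made by RMA in Affymetrix Expression Console 1.2, which adjusts background and brings the arrays to 1 distribution, so that a signal common to all genes is removed. Array medians were 6.76 to 6.88. Of the probe sets, 21789 had 1 gene symbol, 1621 several and 12146 were not in the name table. This left 19938 genes (19856 named through RefSeq), each read from its brightest probe set on average. A single limma model (version 3.58.1, R 4.3.3) held the 3 groups, with 15 residual degrees of freedom, and p-values were adjusted by Benjamini-Hochberg over all genes at a threshold of 0.10. The number of arrays limits the precision. On simulated data at a log2 change of 1, 88% of 100 changed genes were recovered for STZ, SD against Con, SD, 87% for STZ, BEZ against STZ, SD and 90% for STZ, BEZ against Con, SD. The simulation drew these genes from all 19938 and used normal noise, with 1 spread per gene in every group. The macrophage genes had wider ranges within a group than all genes, so that these rates may be too high for them. Members and lists were chosen with earlier results of these data known. All members are named, and from each partner list up to 3 called genes by p-value, or the 2 with the smallest p where none was called. Values relative to the general genes and the fit without the arrays of most epididymis signal were chosen after seeing the data. Alternatives covered the threshold, a fold minimum of 1.5, probe set choice, dim genes, normalization, the variance model, array weights, SAM, the arrays in the fit, tissue markers, a replicate block and each array left out. A planned search of protein sequences was not run.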

Additional observations from a re-analysis of the deposited data

Results flagged for a closer look

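In 201 groups of 5 to 7 arrays, for the macrophage genes and the named partner genes, 22 had 1 array far from the rest of its group by Dixon's criterion, where chance gives about 5%. Of these, 7 were STZ, BEZ replicate 3, 6 were STZ, SD replicate 6, and 10 concerned macrophage genes.

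STZ, BEZ replicate 3 was the highest of its group for Adgre1 (10.07), Mpeg1 (9.04), Cybb (10.16), Itgax (7.42), Lgals3 (10.98), Csf2ra (9.25) and Ccl24 (8.09). STZ, SD replicate 6 was the highest of its group for Marco (8.28), Aif1 (7.09) and Pik3ap1 (10.02), and the lowest for Gpnmb (7.09), Lgals3 (8.39) and Cbr2 (7.96). STZ, SD replicate 3 was the lowest for Msr1 (6.96) and the highest for Mfge8 (11.94).

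The other arrays that stood apart did so for partner genes. STZ, BEZ replicate 4 was the lowest of its group for Card9 (6.32) and the highest for Ccl4 (5.83). STZ, SD replicate 1 had the highest Ptgs2 value (11.04) and STZ, SD replicate 5 the highest Retnla value (12.01) of their group. Con, SD replicate 1 was the highest of its group for Card9 (7.57) and Plcg2 (8.24), and Con, SD replicate 5 the lowest for Ccl4 (5.37).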

How the results depend on the processing

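Of 3267 values of single macrophage genes under the alternatives, 3032 kept their direction and their side of the threshold, 8 lost and 43 gained a call. Another 183 changed direction without a call in either fit, and they came from 47 of the 99 pairs of gene and comparison. The remaining 1 changed direction with a call. It was Cd53 in STZ, BEZ compared with Con, SD, at 0.06 in the fit of all arrays and -0.66 with the pancreas and epididymis means as covariates. In STZ, SD compared with Con, SD, 2 genes were called, against 1 at an adjusted p under 0.05, 1 with only the 2 groups in the fit, 5 with array weights, 4 by SAM, 8 with the tissue covariates, 5 without the 3 arrays of most pancreas signal, and 1 to 6 with 1 array left out, 6 of them without STZ, SD replicate 6. In STZ, BEZ compared with STZ, SD, 0 genes were called, against 1 (Marco, lower) with the tissue covariates and 0 to 1 with 1 array left out, the 1 being Folr2 without STZ, SD replicate 5. In STZ, BEZ compared with Con, SD, 0 were called, against 1 (Cd14) without the dimmest 25% of genes, 2 with array weights, 2 with only the 2 groups, 4 by SAM, 6 with the tissue covariates and 0 to 2 with 1 array left out. The causes of these moves were not tested. With a replicate block the 3 comparisons gave 0, 0 and 0 calls. Same-numbered arrays correlated at -0.357 to 0.7 in their deviations from the group means. STZ, SD replicate 3 correlated at 0.7 with Con, SD replicate 3 and at 0.69 with Con, SD replicate 5. These are the 3 arrays of most epididymis signal, so that the correlations cannot decide whether the numbers pair the mice.

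Over all genes, the counts of 2063, 141 and 1187 called in these 3 comparisons were 1089, 17 and 602 at an adjusted p under 0.05, 617, 89 and 464 with a fold of at least 1.5, 3374, 378 and 3804 with array weights, 1022, 14 and 2820 with only the 2 groups, 680, 2 and 599 with the replicate block, 2455, 461 and 5011 by SAM and 3388, 1969 and 3618 with the tissue covariates. They were 2305, 2 and 572 without the 3 arrays of most pancreas signal and 2386, 14 and 760 without those of most epididymis signal. Signals near the floor of the arrays, such as those of Marco and Aif1, may understate a change.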
